A study of Homo sapiens with 48 samples.

Results

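The transcriptional response of HEK293 cells to 6 h of joint stimulation with epidermal growth factor (EGF) and angiotensin II (AII) was described by comparing cells given both hormones with the unstimulated cells of the 6 h control group. The cells were chosen by their labels, stimulated with AII + EGF or left as controls for 6 h, and libraries whose label was in doubt were set aside. 4 of 6 AII + EGF libraries and 4 of 6 control libraries were used, which makes 8 of the 48 libraries of the series. Polyadenylated RNA was sequenced from a human embryonic kidney line carrying a stably integrated plasmid for the human angiotensin II receptor AT1R. The question was how signals of the EGF receptor (EGFR) and of AT1R combine. All 8 groups of the series, namely control, EGF, AII and AII + EGF at 6 h and at 24 h, shared this AT1R transgene and were kept in medium without serum. EGF was given at 10 µg/l and AII at 1 nmol/l. The line was selected with puromycin in the presence of the AT1R blocker losartan and was grown from a single clone by limiting dilution, so its results describe 1 clone with forced AT1R expression. No label says whether libraries of a group came from separate cultures, so p-values measure only the spread between these libraries. The counts come from whole cultures, in which a larger response per cell and a larger share of responding cells cannot be told apart.

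As background, AT1R is a G protein-coupled receptor that acts mainly through Gq, phospholipase C and calcium, and it can transactivate EGFR by releasing membrane-bound EGFR ligands. EGFR is a receptor tyrosine kinase that activates the RAS, RAF and ERK cascade. Both routes meet at serum response factor (SRF) and its ELK partners, which switch on immediate-early genes such as the FOS and EGR factors. Those factors in turn drive later genes for secreted proteases, phosphatases and feedback inhibitors of ERK.

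Library totals were 19714263 to 22853401 counts in the 4 AII + EGF libraries (replicates 1, 2, 3 and 5) and 18997424 to 22709728 in the 4 control libraries (replicates 3 to 6). Of 1128 pairs of libraries in the series, 4 differed by less than sampling noise, with a chi-square per degree of freedom of 0.397 to 0.505, against a lowest value of 2.02 in the other 119 pairs within groups. In 3 of these 4 pairs the labels gave different groups, so control replicates 1 and 2, AII + EGF replicate 4 and its partner EGF replicate 1 were left out. EGF replicates 2 and 6 formed the remaining pair and were counted as 1 sample. AII + EGF replicate 6 was left out because it lay at −0.00483 on a scale from the mean of the AII libraries (0) to the mean of the AII + EGF libraries (1) over 1582 genes, while AII replicate 6 lay at 0.848. That choice rested on measured values, and counts with all 12 libraries as labelled are given further on. SERPINB2, described next, stood at 5.73 CPM, counts per 1000000 counts of the library total scaled by its TMM factor (trimmed mean of M values), in AII + EGF replicate 4, at 0.488 CPM in AII + EGF replicate 6 and at 6.92 CPM in AII replicate 6. All 10 of the HEK293 genes checked, among them NEFL, NEFM, VIM, KRT8, KRT18 and PAX2, were above 1 CPM. Their summed level was 3365 to 5701 CPM in control and 8311 to 10651 CPM under AII + EGF, and 4 of the 10 passed the test as higher. Most of this sum was NEFM, at 2412 to 4378 CPM in control and 7252 to 9388 CPM under AII + EGF. Of the markers of other cell types, 1 of 6 fibroblast genes, 1 of 6 blood cell genes and 0 of 4 endothelial genes exceeded 1 CPM. Their sums were 10.2 to 12.6, 1.18 to 2.38 and 0.632 to 1.18 CPM in control and 8.75 to 10.7, 1.16 to 1.74 and 0.211 to 0.72 CPM under AII + EGF, with the T cell gene CD3E at 0.

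SERPINB2, KCNA1 and MMP10 were under 1 CPM in every control library and at 12 to 34.6 CPM in the libraries given AII + EGF for 6 h, and ARC went from a low to a high level. SERPINB2, an inhibitor of urokinase-type plasminogen activator (chr18:63887705-63903888, GRCh38, protein-coding), measured 0.159, 0.0451, 0.16 and 0 CPM in control replicates 3, 4, 5 and 6 and 12.5, 12, 13.5 and 13.5 CPM in AII + EGF replicates 1, 2, 3 and 5. All 4 stimulated libraries lay far above all controls and close to each other. Its log2 change was 7.14 ± 0.31 (SE) with an adjusted p of 4.59e-10, from the quasi-likelihood test of edgeR after Benjamini-Hochberg correction across 16558 genes. The fitted change of a gene this low in control depends on the prior count, so the counts are given too. SERPINB2 had 1012 counts in the 4 stimulated and 7 in the 4 control libraries, a depth-scaled ratio of 152 with an exact 95% interval of 73.6 to 380 that covers counting error only.

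KCNA1, a voltage-gated potassium channel subunit (chr12:4909905-4918256), measured 0.159, 0.135, 0 and 0.0877 CPM in the control and 20.4, 20.6, 17.7 and 18.4 CPM in the AII + EGF libraries. It had 1516 counts against 8 and a ratio of 200 (101 to 463). MMP10, the matrix metalloproteinase stromelysin-2 (chr11:102770502-102780628), stood at 0.317, 0.271, 0.64 and 0.307 CPM in control and at 29.9, 28.3, 32 and 34.6 CPM under AII + EGF, a log2 change of 6.35 ± 0.20. Control replicate 5 was the highest of its group, still below every stimulated library. ARC, a cytoskeleton-associated immediate-early gene best known from synapses (chromosome 8), measured 6.67, 6.14, 5.07 and 5.04 CPM in control and 219, 260.4, 226 and 270.1 CPM with both hormones. Its log2 change was 5.41 ± 0.13, with an adjusted p of 1.68e-12 in edgeR's quasi-likelihood test. The groups did not overlap in any of these 4 genes, and all 4 kept their call against control under every alternative tried.

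**Figure D1:**
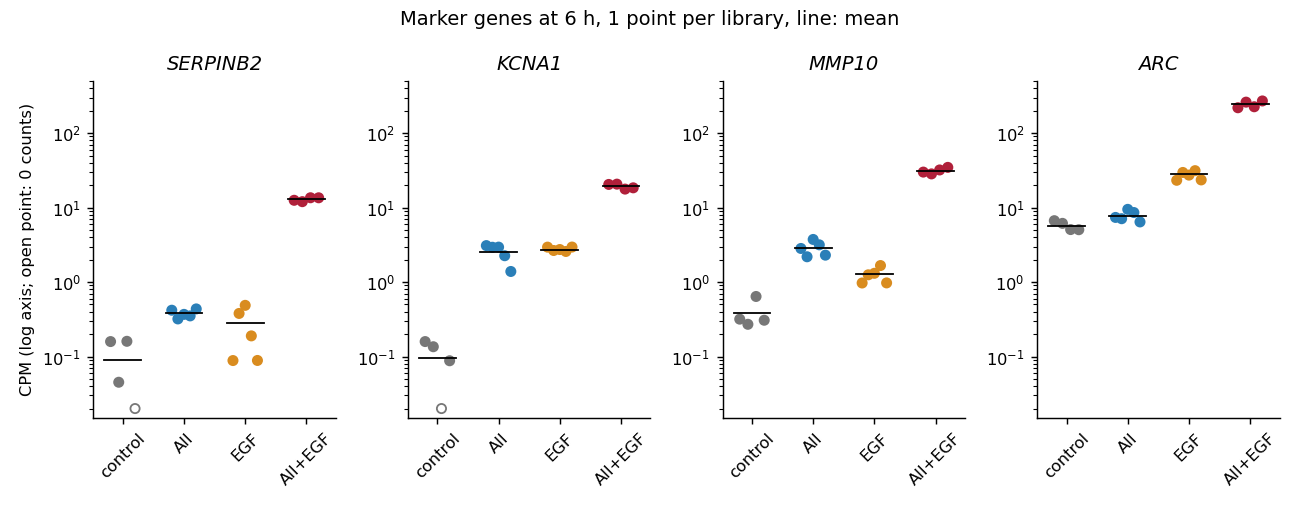
CPM (log axis) of SERPINB2, KCNA1, MMP10 and ARC in each library used at 6 h, by group, with open points for libraries at 0 counts. EGF replicates 2 and 6 are drawn as separate points although they count as 1 sample. The 4 AII + EGF libraries lie above all libraries of the control, EGF and AII groups in each panel, as with SERPINB2 at 12 to 13.5 CPM.

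All 4 genes were called higher under AII + EGF than under either hormone alone, though not with all libraries kept as labelled, as set out further on. SERPINB2 averaged 0.286 CPM under EGF (4 samples) and 0.378 CPM under AII (5 libraries) against 12.9 ± 0.765 CPM under AII + EGF (SD, n = 4). The log2 difference from EGF was 5.67 ± 0.33 and that from AII 5.06 ± 0.15. KCNA1 averaged 2.73 CPM under EGF and 2.52 CPM under AII against 19.3 ± 1.46 CPM with both. MMP10 averaged 1.30 CPM under EGF and 2.84 CPM under AII against 31.2 ± 2.73 CPM. ARC averaged 27.9 CPM under EGF and 7.78 CPM under AII, and 244 ± 25.3 CPM with both. After 24 h of AII + EGF the means of 6 libraries were 0.575 CPM for SERPINB2, 0.276 CPM for KCNA1, 2.40 CPM for MMP10 and 43.4 CPM for ARC, where the 24 h controls averaged 0.042, 0.0367, 0.199 and 5.55 CPM. Those 6 libraries ranged, in the same order, over 0.144 to 1.04, 0.108 to 0.376, 0.505 to 3.56 and 12.9 to 61.9 CPM. Libraries were placed between group means at 6 h only. The 6 h and 24 h levels were set side by side and not tested against each other.

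The stretches before the start sites of SERPINB2 and MMP10 are shown because both hold the same AP-1 site, the letters that FOS and JUN dimers bind, and that of EGR1 because it holds a pair of CArG boxes, the element SRF binds. The sequences are 250 bases up to the annotated start, 5′ to 3′ on the gene's strand, from RefSeq (GRCh38.p14), and capitals mark these matches.
SERPINB2, chr18:63887455-63887704, plus strand: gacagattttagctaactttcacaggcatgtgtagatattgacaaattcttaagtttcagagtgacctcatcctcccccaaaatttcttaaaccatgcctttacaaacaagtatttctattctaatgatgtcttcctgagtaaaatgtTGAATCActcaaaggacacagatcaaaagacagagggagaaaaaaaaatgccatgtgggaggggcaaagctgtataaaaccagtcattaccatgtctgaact
MMP10, chr11:102780629-102780878, minus strand: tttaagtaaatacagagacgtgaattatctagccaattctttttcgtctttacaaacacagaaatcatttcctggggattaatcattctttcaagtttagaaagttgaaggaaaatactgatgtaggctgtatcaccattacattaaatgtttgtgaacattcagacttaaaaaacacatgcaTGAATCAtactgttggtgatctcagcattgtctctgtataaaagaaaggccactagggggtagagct
EGR1, chr5:138465229-138465478, plus strand: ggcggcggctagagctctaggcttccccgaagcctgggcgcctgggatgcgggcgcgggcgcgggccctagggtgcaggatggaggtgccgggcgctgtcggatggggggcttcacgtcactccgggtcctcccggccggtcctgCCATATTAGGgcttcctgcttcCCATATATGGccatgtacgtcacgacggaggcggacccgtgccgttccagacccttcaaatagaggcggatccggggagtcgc
The AP-1 motif TGANTCA was searched on both strands and was matched by TGAATCA at −102 to −96 from the start of SERPINB2 and at −67 to −61 from that of MMP10. Of all 27305 promoter windows in the table (250 bases before to 50 after each start), 7.76% held this motif, and 4.52% of the 11496 windows of tested genes. EGR1 had CArG boxes at −105 to −96 and −83 to −74, and 1.29% of all windows and 1.01% of those of tested genes held one. TFPI2, one of the largest rises, also held an AP-1 match, at −87 to −81, and an EGR site (GCGTGGGCG or GCGGGGGCG) at −118 to −110. The windows of EGR1, LINC00659, TAC1 and GPR50, also among the largest rises, held neither an AP-1 nor an EGR match. For KCNA1, ETV4 and ETV5 no match was recorded, for lack of a match or of a window. Windows of NAB2 and TGFB1 held EGR sites as well, against 5.7% of all windows and 9.64% of those of tested genes. Windows were found for 961 of the 1267 genes called higher and for 11496 of the 16558 tested. That is under the 80% coverage required here, so a comparison of motif shares between called and other genes is void. Shares were computed for the called genes, but no conclusion is drawn from them. A match describes the letters and does not show that a factor was bound.

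Over all genes, the response was broad and went in both directions. A gene was called when its adjusted p was under 0.01, its change at least 1.5-fold and its mean over 5 CPM in the higher group. Of 16558 genes tested, 2466 were called (14.9%), 1267 higher (7.65%) and 1199 lower (7.24%). The counts of gene lists against control below are to be read beside these shares. The 4 libraries of each group did not overlap in 6227 genes (37.6%), and among the called genes in 2424. Large changes were mostly rises. Of the called genes, 504 rose and 337 fell at least 2-fold, and 126 rose and 10 fell at least 4-fold. Protein-coding genes made up 2294 of the calls and long noncoding RNAs 115. The balance of rises and falls depended on scaling. With library totals in place of TMM factors 969 of 2482 called genes were higher and 1513 lower, and the median log2 change of all genes moved from −0.03 to −0.12. With all 12 libraries as labelled, 1546 genes were called, 775 higher and 771 lower, of which 1442 were among the 2466. Of 123 genes chosen for naming and tested in that fit, 23 lost their call, namely CORO6, PPP3CB-AS1, NEFM, EIF3E, SQLE, TSPAN3, IL11, LIF, RELB, TNFAIP3, ITGA5, ITGAV, SLC2A3, MVD, MVK, SAT1, SRM, ARRDC4, MPG, NDUFB10, ZNF469, NTSR1 and OMA1. In each called gene named below the 4 AII + EGF libraries lay on one side of the 4 control libraries. For the 12 largest rises and falls and the 5 largest gains and losses in CPM, this was a condition of the choice. Means are over 4 libraries per group, and ± on a log2 change is the SE.

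**Figure D2:**
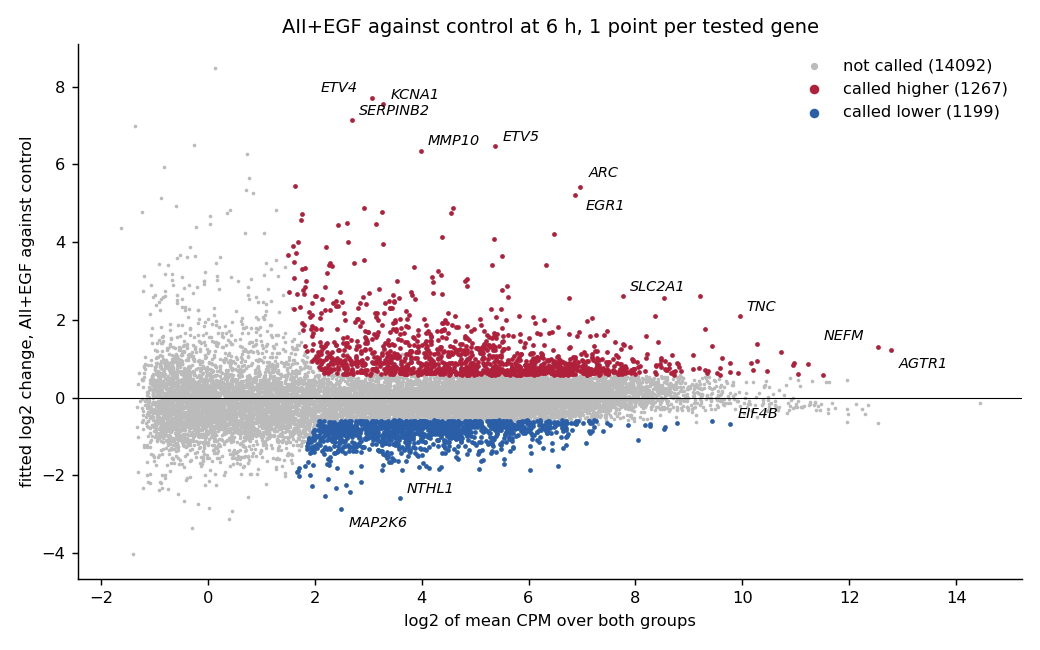
Log2 change under AII + EGF against control (vertical axis) by mean level in log2 CPM (horizontal axis) for all 16558 genes tested, with called rises and falls coloured and selected genes named. The named rises reach a log2 change of 7.72 (ETV4) while the named falls end at −2.86 (MAP2K6), and off-centre grey points at the left are below the 5 CPM minimum.

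Transcription factors of the ERK response were among the largest rises. ETV4 and ETV5 belong to the PEA3 class of ETS factors, which ERK signalling induces and activates. ETV4 measured 0.0529, 0.135, 0.107 and 0 CPM in unstimulated cells and 15.6, 17.2, 14.9 and 18.9 CPM under AII + EGF, from 6 counts to 1306, a ratio of 229 (105 to 626). ETV5 measured 1.22, 1.04, 0.533 and 0.877 CPM and 76.9, 82.3, 79.2 and 89.6 CPM, a log2 change of 6.47 ± 0.16. ETV1 rose in the same class from 20 counts to 514, a ratio of 27.1 (17.3 to 44.7). The ELK members of the list, the partners of SRF, were not called, so 3 of 6 tested ETS genes passed. EGR1, a zinc finger factor and SRF target, measured 6.82, 6.86, 6.67 and 4.43 CPM in unstimulated cells and 186, 207, 239 and 279 CPM under AII + EGF (log2 change 5.20 ± 0.17). Control replicate 6 was the lowest of its group, and every stimulated library lay above every control. EGR3 rose from 1.59 to 46.6 CPM, log2 change 4.87 ± 0.14, and EGR2 from 0.584 to 8.69 CPM, log2 change 3.87 ± 0.27. NAB2, a corepressor that binds EGR factors and restrains them, rose with them from 6.75 to 84.5 CPM, log2 change 3.65 ± 0.13. 4 of 5 tested genes of the EGR and NAB list were called higher and the median log2 change was 3.87, beside −0.03 over all tested genes.

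AP-1 is the dimeric factor formed by FOS and JUN proteins and their relatives. Of 12 tested genes of the FOS, JUN, ATF3, BATF and small MAF families, 7 were called higher and 0 lower, with a median log2 change of 1.23. MAFF, a small MAF protein, rose from 2.32 to 16.2 CPM, log2 change 2.80 ± 0.14. FOS rose from 2.11 to 12.8 CPM, log2 change 2.59 ± 0.17, BATF3 from 3.15 to 17.7 CPM, log2 change 2.49 ± 0.17 and JUNB from 13.3 to 65.3 CPM, log2 change 2.29 ± 0.15. JUND stood at 205 CPM without and 144 CPM with AII + EGF (log2 change −0.51 ± 0.12) and missed the 1.5-fold limit. Of 30 other immediate-early genes, 14 were called higher and 1 lower (11 and 1 with all libraries as labelled). Besides ARC they included CSRNP1, a nuclear protein (6.22 to 49.9 CPM, log2 change 3 ± 0.16), IER3, a regulator of cell survival (2.48 to 13.2 CPM, log2 change 2.40 ± 0.21), and NR4A3, an orphan nuclear receptor (2.36 to 9.42 CPM, log2 change 2 ± 0.17). MYC, a driver of growth, stood at 649 and 474 CPM (log2 change −0.45 ± 0.11) and missed the same limit.

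Several feedback inhibitors of ERK signalling rose. Of 16 tested dual-specificity phosphatases, Sprouty and SPRED genes, 7 were called higher and 0 lower (median 1.29). With all libraries as labelled it was 5 and 0 (median 0.73). DUSP5, a nuclear phosphatase that inactivates ERK, rose from 3.57 to 17.6 CPM, log2 change 2.30 ± 0.14. SPRED2 and SPRED1, which block RAF activation, rose from 16.1 to 67.7 CPM, log2 change 2.07 ± 0.09 and from 14.2 to 48.8 CPM, log2 change 1.77 ± 0.10. SPRY2, an inhibitor of receptor tyrosine kinase signalling, rose from 9.78 to 33.1 CPM, log2 change 1.76 ± 0.12. In the p38 and JNK branch, 1 of 13 tested kinases was called in each direction, a share (15.4%) near the 14.9% over all genes. MAP2K4, which activates JNK, rose from 49.4 to 82.6 CPM, log2 change 0.74 ± 0.09, and MAP2K6, an activator of p38, was the largest fall among called genes and is described with the falls.

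Both receptors had more RNA after joint stimulation. EGFR (chr7:55019017-55211628) measured 16.7, 22.8, 19.5 and 17.3 CPM in unstimulated cells and 45.6, 49.4, 43.7 and 45.8 CPM under AII + EGF, a log2 change of 1.27 ± 0.11. AGTR1, the gene of AT1R (chr3:148697903-148743003), measured 4376, 4169, 4470.3 and 3965 CPM and 9908, 9276, 10026 and 10314 CPM, a log2 change of 1.22 ± 0.14. Reads of the AT1R plasmid and of the resident gene are not separated, so the rise cannot be assigned to the resident gene. In the paper, a reporter of SRF activity did not respond to AII in HEK293 cells lacking transfected AT1R. EGFR averaged 30.4 CPM under EGF and 26.3 CPM under AII, and AGTR1 4891 CPM under EGF and 5926 CPM under AII, in both genes below AII + EGF by a difference that passed the test. Of 14 tested EGFR ligands, receptors and inhibitors, 3 were called (21.4%), all higher, beside 14.9% called over all genes. HBEGF, the membrane-bound ligand implicated in transactivation, rose from 3.36 to 9.46 CPM, log2 change 1.5 ± 0.14, and ERRFI1, a cytosolic EGFR inhibitor, from 23 to 38.6 CPM, log2 change 0.75 ± 0.10. The paper states that HEK293 cells cannot transactivate EGFR through such a ligand, most probably because they express little of it. Whether the rise in HBEGF changed this was not tested. Among 21 genes of AT1R and Gq signalling, 5 were higher, AGTR1 among them, and 1 lower (28.6% called, median −0.07). HOMER1, a scaffold that couples receptors to calcium release, measured 30.9, 32.8, 38.2 and 34.1 CPM in unstimulated cells and 112, 103, 115 and 103 CPM under AII + EGF (log2 change 1.67 ± 0.10). It averaged 36.4 CPM under EGF and 37.4 CPM under AII, beside a control mean of 34 CPM. RCAN1, a calcineurin inhibitor that calcium signals induce, rose from 53.2 to 88 CPM, log2 change 0.73 ± 0.10. AGTRAP, a protein that binds AT1R and promotes its internalisation, fell from 29.8 to 13.6 CPM, log2 change −1.13 ± 0.12.

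Several genes of secreted and matrix proteins rose. Of 13 tested genes of the plasminogen system and of matrix proteases, 7 were called higher and 0 lower (median 0.95). With all libraries as labelled it was 4 higher and 2 lower of 12. ADAMTS1, a protease of the extracellular matrix, rose from 124 to 534 CPM, log2 change 2.11 ± 0.11, and SERPINE2, a thrombin and plasminogen activator inhibitor, from 20.2 to 50.4 CPM, log2 change 1.32 ± 0.13. TFPI2, a secreted protease inhibitor, rose from 0.494 to 14.7 CPM, log2 change 4.88 ± 0.26. TNC, the matrix glycoprotein tenascin C, had one of the 5 largest gains in CPM, from 376 to 1601 CPM, log2 change 2.09 ± 0.14. TGFB1 measured 17.2, 13.2, 10.3 and 5.83 CPM in unstimulated cells and 79.1, 77, 72.4 and 87.7 CPM under AII + EGF (log2 change 2.77 ± 0.22), and was the only rise called among 18 genes of TGF-beta signalling. The share of these 18 genes called in either direction, 16.7%, was near the 14.9% over all genes. LTBP2, which resembles the proteins that bind latent TGF-beta, fell from 8.30 to 3.17 CPM, log2 change −1.39 ± 0.17, and SMAD6, an inhibitory SMAD, from 16.1 to 8.15 CPM, log2 change −0.98 ± 0.14. Of 8 tested cytokines and NF-kappa-B targets, 4 were called higher. IL11 rose from 0.484 to 5.64 CPM, log2 change 3.50 ± 0.29, LIF from 4.12 to 8.41 CPM, log2 change 1.03 ± 0.15, RELB, an NF-kappa-B subunit, from 7.92 to 13.8 CPM, log2 change 0.80 ± 0.18 and TNFAIP3, an inhibitor of NF-kappa-B, from 4.92 to 7.65 CPM, log2 change 0.63 ± 0.15. None of the 8 was called by edgeR when all libraries were kept as labelled, with a median log2 change of 0.64 in that fit.

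A few peptide hormone, receptor and noncoding genes were among the large rises. GPR50, an orphan receptor related to the melatonin receptors, rose from 1.69 to 45.3 CPM, log2 change 4.74 ± 0.19. TAC1, the precursor of substance P, measured 0.846, 0.451, 0.746 and 0.658 CPM in unstimulated cells and 14.3, 15.7, 21.6 and 22.2 CPM under AII + EGF. LINC00659, a long noncoding RNA, had 11 counts in control and 473 under AII + EGF, a ratio of 45.3 (25.1 to 91.3). NTSR1, a Gq-coupled neurotensin receptor, measured 0.212, 0.541, 0.16 and 0.132 CPM and 8.45, 9.69, 4.27 and 3.36 CPM. In NTSR1 the AII + EGF replicates 1 and 2 were higher than replicates 3 and 5, and in TAC1 they were lower. The sample titles place replicates 1 and 2 in run 1 of titles, replicate 3 in run 4 and replicate 5 in run 5. The part of these runs in these levels was not tested.

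Some channel, cytoskeletal and integrin genes changed. Of 15 tested voltage-gated potassium channel genes 4, KCNA1 among them, were called higher and 1 lower. KCNQ5 rose from 21.4 to 54.8 CPM, log2 change 1.35 ± 0.11, whereas KCNAB2, a beta subunit, fell from 24.4 to 9.49 CPM, log2 change −1.36 ± 0.11. Of 28 cytoskeletal genes under MRTF and SRF, 7 were called higher and 2 lower (median 0.24), and 3 and 1 with all libraries as labelled. VCL, which links integrins to actin, rose from 127 to 272 CPM, log2 change 1.10 ± 0.09, and FLNA, an actin cross-linker, from 854 to 1636 CPM, log2 change 0.94 ± 0.13. Of 15 integrin genes 4 were called higher and 1 lower, among them ITGA5 from 37 to 60.4 CPM, log2 change 0.71 ± 0.10 and ITGAV from 57.3 to 92.8 CPM, log2 change 0.70 ± 0.10. Integrins lost all calls in edgeR with all libraries as labelled, and their median log2 change turned from 0.26 to −0.11.

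Most genes of glycolysis and targets of hypoxia-inducible factor (HIF) rose. Of 35 tested genes 24 were called higher and 0 lower, with a median log2 change of 0.76, and 31 lay above 0. SLC2A1, the glucose transporter GLUT1, measured 72.6, 68.4, 57.7 and 46.9 CPM in unstimulated cells and 378, 414, 300.1 and 409 CPM under AII + EGF (log2 change 2.61 ± 0.15). SLC2A3, the glucose transporter GLUT3, rose from 4.23 to 33 CPM, log2 change 2.98 ± 0.23. HK2, the hexokinase that traps glucose in the cell, rose from 56.8 to 234 CPM, log2 change 2.04 ± 0.11, and NDRG1, a stress-induced HIF target, from 107 to 635 CPM, log2 change 2.57 ± 0.15. With all libraries as labelled 11 of 35 were called, all higher, and the median was 0.51. In these 4 genes the means under EGF and under AII lay between those of control and AII + EGF, with SLC2A1 at 172 CPM under EGF and 128 CPM under AII.

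Of 34 tested genes of amino acid supply and stress under the factor ATF4, 16 were called higher and 2 lower (median 0.59). With all libraries as labelled it was 11 and 1 (median 0.41). SLC7A11, the cystine/glutamate exchanger, measured 6.08, 8.75, 7.68 and 10.3 CPM in unstimulated cells and 38.5, 37.4, 40.7 and 31.5 CPM under AII + EGF (log2 change 2.17 ± 0.15). SLC6A9, a glycine transporter, rose from 3.54 to 16.1 CPM, log2 change 2.18 ± 0.17, SLC7A5, a carrier of large neutral amino acids, from 81.9 to 271 CPM, log2 change 1.73 ± 0.10, and MTHFD1L, a mitochondrial enzyme of folate metabolism, from 71.1 to 214 CPM, log2 change 1.59 ± 0.10. 6 of 20 cytosolic aminoacyl-tRNA synthetases were called higher and 1 lower. MARS1, which charges methionine tRNA, rose from 108 to 245 CPM, log2 change 1.17 ± 0.10. With AII alone SLC7A11 and SLC6A9 averaged 40 and 20.6 CPM, and with EGF alone 11.9 and 4.91 CPM. The log2 difference between AII + EGF and AII was −0.11 ± 0.14 for SLC7A11 and −0.36 ± 0.10 for SLC6A9, neither of them called.

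The folding machinery of the endoplasmic reticulum (ER) was raised in part. Of 21 genes of the unfolded protein response and ER chaperones, 10 were called higher and 1 lower (median 0.53), and these counts were also 10 and 1 with all libraries as labelled. HSPA5, the chaperone BiP, measured 429, 380.1, 391 and 375 CPM in unstimulated cells and 1009.5, 919, 1021 and 1005 CPM under AII + EGF (log2 change 1.33 ± 0.11). HYOU1 rose from 123 to 318 CPM, log2 change 1.37 ± 0.09, SDF2L1 from 14.9 to 39 CPM, log2 change 1.39 ± 0.15, DNAJB11 from 138 to 342 CPM, log2 change 1.31 ± 0.11 and HSP90B1 from 1031 to 2338 CPM, log2 change 1.18 ± 0.13, all of them chaperones or cochaperones of the ER lumen. HSPA5 averaged 473 CPM under EGF and 854 CPM under AII. Against EGF alone 9 of the 21 were called higher with AII + EGF and 1 lower (median 0.51), beside 2.45% and 2.24% over all genes. Against AII alone 0 were called by edgeR in either direction (median 0.13), beside 9.48% over all genes. HSPA8, a cytosolic chaperone outside the list, rose from 1709.9 to 3116 CPM, log2 change 0.87 ± 0.15.

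Nucleolar genes and ribosomal protein genes had medians on opposite sides of 0. 35 of 36 genes of ribosome biogenesis had a log2 change above 0 (median 0.43) and 6 were called, all higher, a share near the 14.9% over all genes. DDX21, an RNA helicase of the nucleolus, rose from 525 to 1056 CPM, log2 change 1.01 ± 0.11, and RRP12, a factor of ribosome assembly, from 69.7 to 122 CPM, log2 change 0.81 ± 0.11. Of 82 cytosolic ribosomal protein genes 9 lay above 0 (median −0.21). RPL39L, a paralogue of RPL39, was called in edgeR and fell from 34.2 to 16.8 CPM, log2 change −1.03 ± 0.14, while 4 of the 82 were called lower by DESeq2, 5 with library totals and 2 with TMM factors from the compared libraries only. The level of RPS2 was 5738 ± 1647 CPM without stimulation and 4290.4 ± 507 CPM under AII + EGF (SD), where the groups overlapped. The translation factors EIF4B and EIF3E were among the 5 largest losses in CPM and fell from 1072 to 673 CPM, log2 change −0.67 ± 0.13 and from 836 to 551 CPM, log2 change −0.60 ± 0.14. NOP53, a nucleolar protein, fell from 474 to 272 CPM, log2 change −0.80 ± 0.14, and TSPAN3, a tetraspanin, from 537 to 344 CPM, log2 change −0.64 ± 0.11. Reads of ribosomal protein genes and their many processed copies can be split between them, so these values are uncertain.

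MAP2K6 and NTHL1 were the largest falls among called genes. MAP2K6, the kinase above p38 (chr17:69414697-69553865), measured 9.52, 10.8, 11.9 and 7.54 CPM in unstimulated cells and 1.06, 1.32, 1.42 and 1.68 CPM under AII + EGF, a log2 change of −2.86 ± 0.20 with an adjusted p of 5.89e-08 in edgeR's quasi-likelihood test. NTHL1, a DNA glycosylase that removes oxidised pyrimidines (chr16:2039820-2047834), measured 27.8, 21.1, 15.6 and 18.1 CPM and 3.21, 3.26, 3.11 and 4.12 CPM (log2 change −2.59 ± 0.18). No stimulated library reached the lowest control in either gene. Of 11 DNA glycosylases 3 were called, all lower, the others being OGG1, which removes oxidised guanine (20.6 to 11.8 CPM, log2 change −0.80 ± 0.10), and MPG, which removes alkylated bases (12.9 to 8.09 CPM, log2 change −0.67 ± 0.14). With all libraries as labelled 1 of the 11 was called higher and 2 lower, and over all genes 7.24% were called lower. ZFP14, a zinc finger protein, fell from 7.83 to 1.35 CPM, log2 change −2.52 ± 0.17 and KBTBD7, a substrate adaptor for protein ubiquitination, from 11.9 to 2.63 CPM, log2 change −2.18 ± 0.16. TRADD, an adaptor of the TNF receptor, fell from 6.41 to 1.33 CPM, log2 change −2.27 ± 0.24, and UNC5C, a netrin receptor, from 9.89 to 2.07 CPM, log2 change −2.25 ± 0.16. FAXDC2 (10.6 to 1.96 CPM, log2 change −2.43 ± 0.20), CORO6, a coronin (7.72 to 1.80 CPM, log2 change −2.10 ± 0.38), GLI4 (6.04 to 1.53 CPM, log2 change −1.98 ± 0.25), CPLANE2, a ciliogenesis gene (5.01 to 1.32 CPM, log2 change −1.92 ± 0.19), and 1 gene listed only as ENSG00000288398 (8.79 to 1.74 CPM, log2 change −2.34 ± 0.17) were also among the 12 largest falls. The last of the 12, PPP3CB-AS1 (5.26 to 1.29 CPM, log2 change −2.03 ± 0.19), lies opposite PPP3CB, and without knowledge of strand its reads cannot be told apart from those of that gene.

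**Figure D3:**
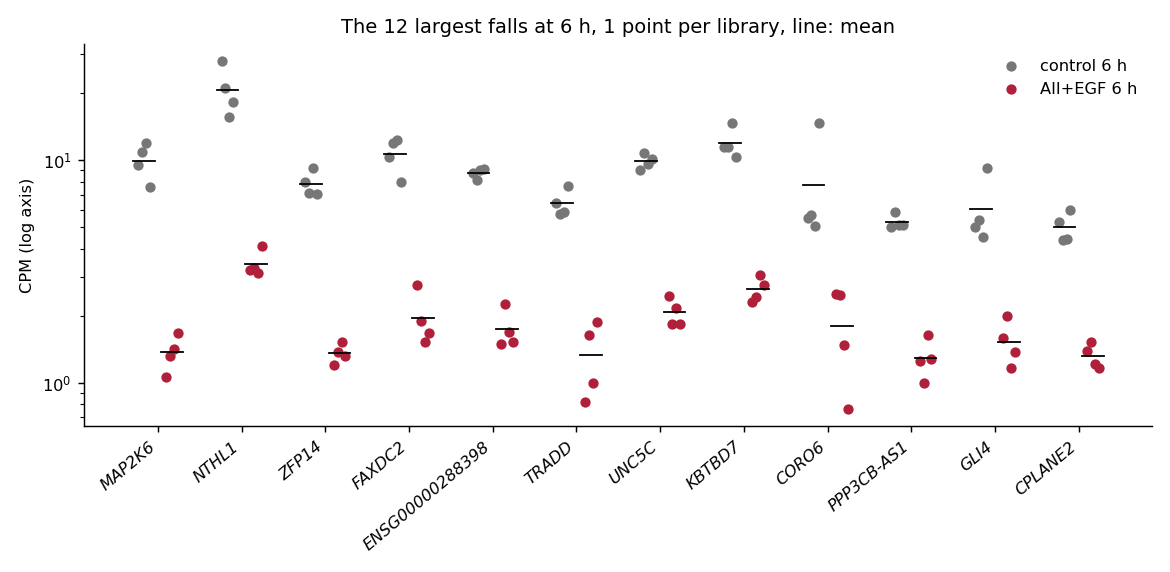
CPM (log axis) of the 12 largest falls in each of the 4 control and 4 AII + EGF libraries. The 12 genes were chosen among called genes whose groups do not overlap, with MAP2K6 at 7.54 to 11.9 CPM in control and at 1.06 to 1.68 CPM under AII + EGF.

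Genes of growth arrest and of the cell cycle gave mixed counts. Of 25 FOXO factors, FOXO targets and TXNIP relatives, 4 were called higher and 6 lower (median −0.13). TXNIP, which restrains glucose uptake, fell from 60.7 to 23 CPM, log2 change −1.40 ± 0.13, while its relative ARRDC4 rose from 41.4 to 146 CPM, log2 change 1.82 ± 0.13. DEPP1, a FOXO target, fell from 17.1 to 6.84 CPM, log2 change −1.32 ± 0.19 and RBL2, a retinoblastoma-related protein of quiescent cells, from 55.4 to 24.1 CPM, log2 change −1.20 ± 0.13. BMF, a pro-apoptotic BCL2 family member outside the list, fell from 31.6 to 8.76 CPM, log2 change −1.85 ± 0.16. Of 20 G1 cyclins, kinases and inhibitors 4 were called (20%), all higher, beside 14.9% called over all genes. CCND1, the cyclin of early G1, rose from 102 to 173 CPM, log2 change 0.76 ± 0.09, CCNE2 from 21.4 to 34.9 CPM, log2 change 0.70 ± 0.11, CDK6 from 80.2 to 140.1 CPM, log2 change 0.80 ± 0.11 and CDKN1A, the inhibitor p21, from 142 to 263 CPM, log2 change 0.89 ± 0.11. RRM2, a subunit of ribonucleotide reductase, rose from 234 to 475 CPM, log2 change 1.02 ± 0.12 and CDT1, which licenses replication origins, fell from 129 to 71 CPM, log2 change −0.86 ± 0.13, while 29 of 33 replication genes were not called. The share of replication genes called, 12.1%, was near that over all genes. None of 29 genes of mitosis was called by edgeR or DESeq2. TOP2A, a topoisomerase of dividing cells, stood at 896 ± 45.9 CPM without stimulation and 960.4 ± 84.2 CPM under AII + EGF (SD), with overlapping groups.

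Sterol synthesis had no common direction. Of 31 genes of cholesterol and fatty acid synthesis 4 were called higher and 6 lower, and their median log2 change was 0.03 and turned to −0.06 with library totals. INSIG1, which holds back the sterol sensor SCAP, rose from 285 to 975 CPM, log2 change 1.78 ± 0.11. The enzymes MVD (29.4 to 15.1 CPM, log2 change −0.97 ± 0.13), MVK (29.1 to 16.6 CPM, log2 change −0.81 ± 0.12), PMVK (17 to 9.66 CPM, log2 change −0.82 ± 0.12) and SQLE (475 to 281 CPM, log2 change −0.76 ± 0.12) fell. Nuclear-encoded respiratory chain genes had a median of −0.12, with 2 of 93 called higher and 3 lower, and with library totals 10 were called lower. NDUFB10, a subunit of complex I, fell from 145 to 90.3 CPM, log2 change −0.69 ± 0.14, and SDHAF4, an assembly factor of complex II, from 11.3 to 5.89 CPM, log2 change −0.94 ± 0.14. Of 435 genes with ZNF symbols 14 were called higher and 25 lower (median −0.05), beside 14.9% called over all genes. ZNF469 rose from 0.631 to 5.45 CPM, log2 change 3.08 ± 0.37, and ZNF76 and ZNF280D fell from 52 to 16.7 CPM, log2 change −1.64 ± 0.12 and from 17.8 to 6.64 CPM, log2 change −1.42 ± 0.13.

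**Figure D4:**
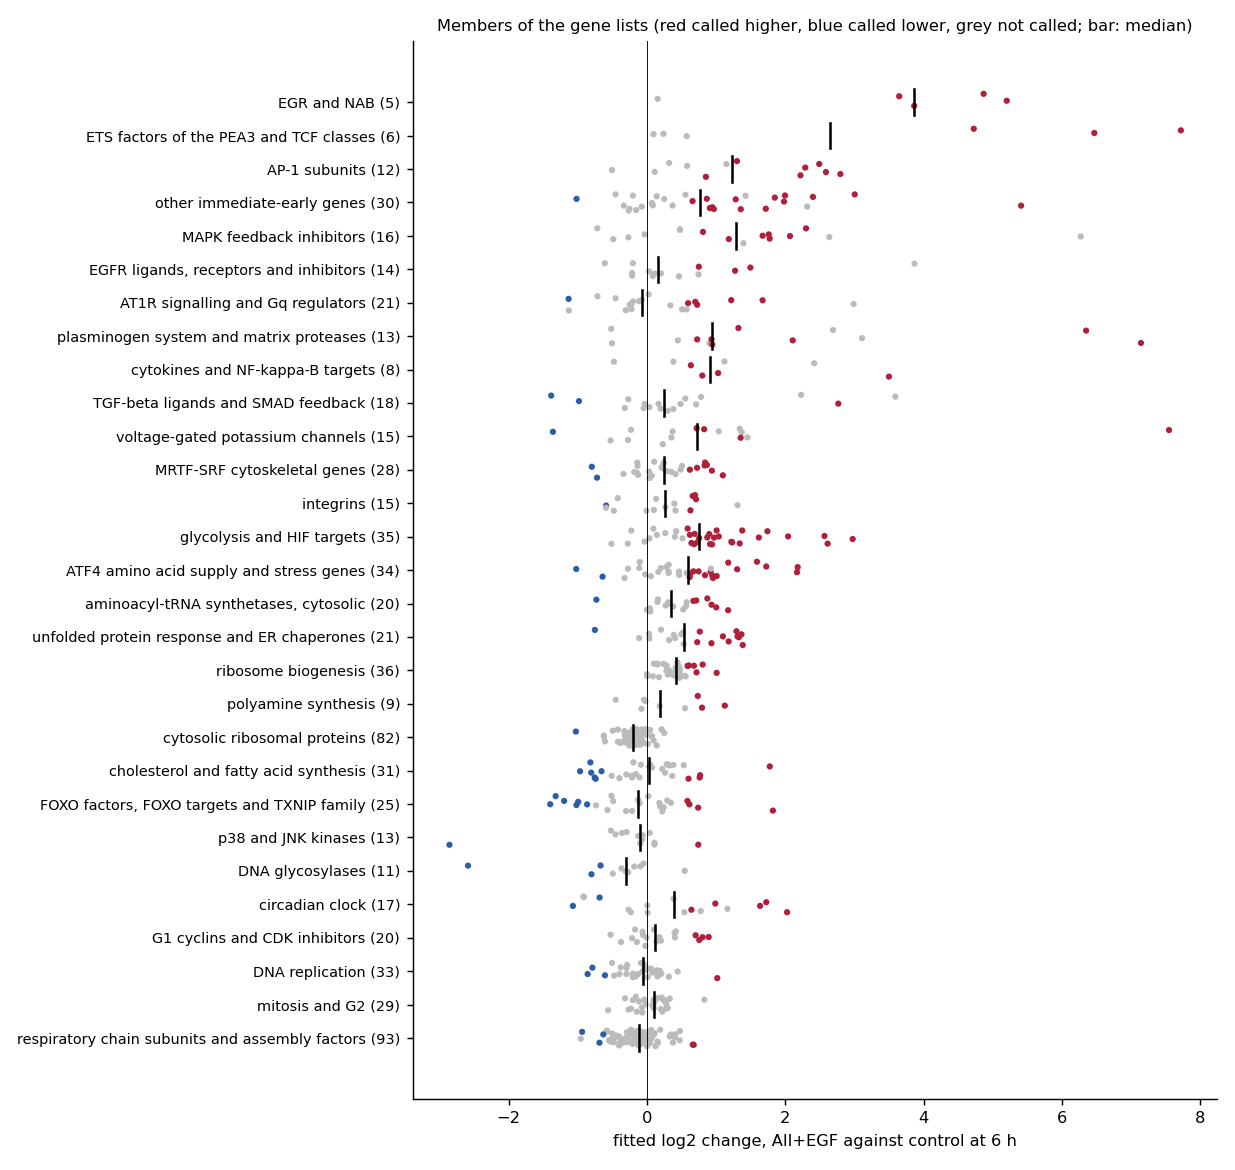
Log2 change under AII + EGF against control of the tested members of 29 gene lists (the ZNF genes are not drawn), 1 point per gene, with called genes coloured and a bar at each list's median. EGR and NAB (median 3.87) and the PEA3 and TCF class ETS factors (2.65) lie furthest to the right, and cytosolic ribosomal proteins (−0.21) and DNA glycosylases (−0.31) lie left of 0.

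To see what the second hormone added, AII + EGF was compared with each hormone alone at 6 h. These comparisons share the 4 AII + EGF libraries with each other and with the comparison against control. Against EGF, 790 of 16848 genes were called (4.69%), 413 higher (2.45%) and 377 lower (2.24%). Against AII, 1582 of 16693 were called (9.48%), 823 higher (4.93%) and 759 lower (4.55%). Changes of at least 2-fold numbered 142 higher and 31 lower against EGF and 280 higher and 153 lower against AII. Both counts rested on the choice of libraries. The 1582 genes called against AII were also the ones used to place AII + EGF replicate 6, and with all libraries as labelled 0 genes were called by edgeR in either comparison, while 4333 and 3782 had an unadjusted p under 0.05 (DESeq2 was not run on that set). With replicate 6 alone added back, 15 genes were called against EGF and 557 against AII. Without AII + EGF replicate 3, 247 genes rather than 377 were called lower against EGF.

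The largest differences from EGF alone were SERPINB2 (log2 5.67 ± 0.33), MMP10 (4.62 ± 0.16), LINC00659 (3.35 ± 0.28), ARC (3.13 ± 0.12) and NTSR1 (3.01 ± 0.34). The largest differences from AII alone were SERPINB2 (5.06 ± 0.15), EGR1 (5.01 ± 0.14), ARC (4.97 ± 0.12), LINC00659 (4.54 ± 0.31) and NTSR1 (4.11 ± 0.43). EGR1 averaged 97.2 CPM under EGF and 7.05 CPM under AII, where the control mean was 6.19 CPM and that of AII + EGF 228 CPM. That EGF mean joined the near-identical pair of replicates 2 and 6, at 48.1 CPM, with replicates 3 to 5, at 109.5 to 120.6 CPM. All EGR and NAB genes called against control were also called higher against EGF and against AII, with list medians of 1.23 and 3.52. NTHL1 was among the 5 largest falls in both comparisons, with 9.83 CPM under EGF and 14.7 CPM under AII against 3.43 CPM with both. Under EGF the same pair stood at 14.7 CPM in NTHL1 and replicates 3 to 5 at 7.27 to 9.84 CPM. In ETV5 the pair lay within the others, at 33.3 CPM beside 29.3 to 38.5 CPM. Other large falls against EGF were UNC5C (−1.60 ± 0.15), INPP5D, an inositol phosphatase (−1.43 ± 0.16), PKP3, a desmosomal plakophilin (−1.37 ± 0.13), and OMA1, a mitochondrial protease (−1.29 ± 0.15). MAP2K6 (−2.23 ± 0.18), ZFP14 (−2.25 ± 0.17), KBTBD7 (−2.08 ± 0.13) and BMF (−2 ± 0.10) were those against AII. MAP2K6 and ZFP14 were not called against EGF, where their means of 4.60 and 3.38 CPM lay under the 5 CPM minimum, with log2 differences of −1.75 ± 0.20 and −1.32 ± 0.19.

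**Figure D5:**
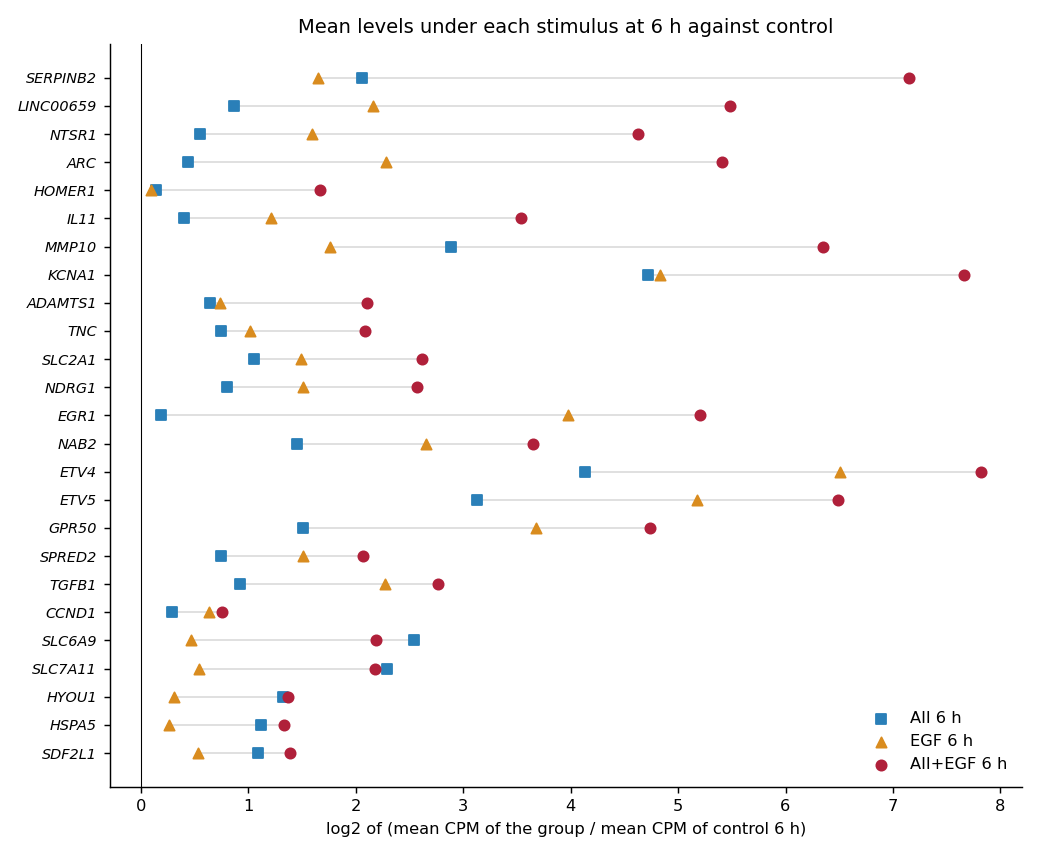
Log2 ratio of mean CPM to the control mean at 6 h for 25 genes under EGF, AII and AII + EGF, 1 point per group and gene. For SERPINB2 both single hormones lie far to the left of AII + EGF, and for SLC7A11 AII lies close to AII + EGF.

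For some genes called against control, no difference from 1 of the single hormones was called. DEPP1 averaged 7.41 CPM under EGF and 6.84 CPM under AII + EGF (log2 difference −0.11 ± 0.13), while AII alone left it at 18.8 CPM. CCND1 averaged, under EGF and under both, 159 and 173 CPM (log2 difference 0.12 ± 0.10) against 125 CPM under AII. SRM, the spermidine synthase, averaged 189 CPM under EGF and 133 CPM under AII, and 204 CPM with both (log2 difference from EGF 0.11 ± 0.09). HYOU1 averaged 153 CPM under EGF and 307 CPM under AII, and 318 CPM with both (log2 difference from AII 0.05 ± 0.07). None of these log2 differences was called, which does not show that the levels were equal. Of the glycolysis and HIF list 5 of 35 genes were called higher against EGF and 11 against AII. Of the ATF4 list 7 were higher and 1 lower against EGF but 3 and 3 against AII, and of the AP-1 list 6 and 8 were higher. Over all genes 2.45% were called higher and 2.24% lower against EGF, and 4.93% and 4.55% against AII.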

How the data were processed

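Polyadenylated RNA of the labelled HEK293 line was sequenced by the authors, who mapped reads to hg38 with HISAT2 2.1.0 and counted them per gene with featureCounts. The deposited table holds raw counts for 60610 genes, 44295 with at least 1 count, in 48 libraries. Genes were annotated by the authors through BiomaRt from an Ensembl archive, and the strandedness of counting is not given in the sources used here. The 37 mitochondrial genes listed hold 0 counts. Symbols were matched for 58609 identifiers.

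Groups came from the sample labels, which carry no replicate numbers, so replicates are numbered in accession order. Counts were tested with edgeR 4.0.16 (R 4.3.3): filterByExpr, TMM factors over all 48 libraries, a quasi-likelihood fit of the 2 groups compared, and Benjamini-Hochberg adjustment over all genes tested. A call needed an adjusted p under 0.01, a 1.5-fold change and over 5 CPM in the higher group. SE is the log2 change divided by the root of F. DESeq2 1.42.0, other scalings, filters, thresholds and sets of libraries, and leaving out each library, were alternatives. The steps were tested on simulated counts. Exact intervals of count ratios cover counting error only.

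The members, gene lists and naming rule were chosen with earlier results of these data known. Named were the 4 markers, the 12 largest rises and falls without overlap, the 5 largest gains and losses in CPM, up to 4 called and 2 uncalled members of each list, both receptors, and the 5 largest differences each way from each single hormone. HSPA8, HSP90B1, TNC, EIF4B, EIF3E, NOP53, SQLE, TSPAN3 and NEFM came from the gains and losses. Not every gene that the rule allows is described, and 1 of them is not reported here.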

Additional observations from a re-analysis of the deposited data

Results flagged for a closer look

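In 17 of 248 sets of 4 libraries (124 genes chosen for naming, in the control and the AII + EGF group), the highest or lowest library stood apart from the other 3 by more than Dixon's 95% limit for the gap over the whole range. Chance alone gives about 1 in 20 such sets. The library was the highest of its group for MMP10 in control replicate 5 (0.64 CPM, nearest 0.317), NTHL1 in AII + EGF replicate 5 (4.12 CPM, nearest 3.26) and CORO6 in control replicate 6 (14.6 CPM, nearest 5.68). It was also the highest for PPP3CB-AS1 in control replicate 4 (5.82 CPM, nearest 5.12), VCL in control replicate 4 (141 CPM, nearest 124), VCL in AII + EGF replicate 5 (294 CPM, nearest 266) and MVD in AII + EGF replicate 5 (17 CPM, nearest 14.6). It was the lowest for EGR1 in control replicate 6 (4.43 CPM, nearest 6.67), ITGA5 in AII + EGF replicate 3 (50.6 CPM, nearest 63), ITGAV in AII + EGF replicate 5 (78 CPM, nearest 97.2), KCNAB2 in control replicate 5 (22.1 CPM, nearest 24.8) and SLC2A3 in control replicate 6 (1.8 CPM, nearest 4.87). The lowest library stood apart as well for SLC7A5 in control replicate 5 (69.7 CPM, nearest 85.1), RBL2 in AII + EGF replicate 5 (21 CPM, nearest 25), MPG in control replicate 5 (9.92 CPM, nearest 13.5), HSPA5 in AII + EGF replicate 2 (919 CPM, nearest 1005) and BMF in control replicate 6 (21.5 CPM, nearest 34.2). The values are CPM with the nearest other library of the same group beside each, and in all of these genes the 2 groups did not overlap.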

How the results depend on the processing

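Depth limits genes near 0 in control, and 4 libraries a group limit small changes. Against control, the 2466 calls stayed within 1.5 times of that number with DESeq2 (2474, 2419 shared), RLE factors (2473), no low-count filter (2562), the study's filter (2470), library totals (2482) and all 48 libraries in 1 fit (1778). They moved to 3931 called (2095 higher, 1836 lower) with no fold minimum, to 1546 (775 and 771) with all libraries as labelled and to 1168 (671 and 497) with AII + EGF replicate 6 added back. Leaving out 1 library gave 2323 to 2504 calls, 1206 to 1293 higher and 1091 to 1256 lower. Against EGF the 790 calls moved to 1493 (756 and 737) with no fold minimum, 0 (0 and 0) with all libraries as labelled, where 4333 genes had an unadjusted p under 0.05 in edgeR, 15 (12 and 3) with replicate 6 added back and 64 (46 and 18) with all 48 libraries in 1 fit. Lower calls moved to 591 with no low-count filter. Leaving out 1 sample gave 624 to 844 calls, 370 to 426 higher and 247 to 418 lower, the fewest lower calls without AII + EGF replicate 3. Against AII the 1582 calls moved to 3547 (1884 and 1663) with no fold minimum, 0 (0 and 0) as labelled, with 3782 under an unadjusted 0.05 in edgeR, 557 (297 and 260) with replicate 6 added back, 311 (195 and 116) with all 48 libraries in 1 fit and 656 (387 and 269) with AII replicate 6 added back. Leaving out 1 library gave 1437 to 1630 calls, 766 to 873 higher and 664 to 799 lower. Beyond what each alternative changes by construction, the cause was not tested.

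No paired analysis was possible because the labels carry no replicate numbers. A fit with the run of sample titles as a replicate block, a stand-in with no stated meaning, gave 2316 calls against control. Of these, 2043 were among the 2466 of the main fit. AII + EGF replicates 1 and 2 shared no run with a control library used, and control replicate 6 shared none with an AII + EGF library used. Against control, these libraries therefore added nothing to the difference in the block fit. The block gave 1040 calls against EGF and 1709 against AII. With that block 6 of the 124 genes chosen for naming lost their call, EIF3E, RELB, TNFAIP3, MPG and NDUFB10 among them. 32 of the 124 lost it with AII + EGF replicate 6 added back and 16 with all 48 libraries in 1 fit. None of the 124 changed direction under any alternative. With all libraries as labelled, calls were 6 higher and 14 lower among ZNF genes, 1 and 7 in the FOXO list, 3 and 2 in the cholesterol list, 3 and 1 in the AT1R and Gq list, 2 and 1 in the respiratory chain and 1 and 2 among DNA glycosylases. Without control replicate 3 or 6, CPLANE2 lost its call against control. TSPAN3, NDUFB10 and EIF3E lost theirs without control replicate 3, GLI4 without control replicate 6, EIF3E also without control replicate 5, ZNF469 and EIF3E without AII + EGF replicate 1 or 2, and TNFAIP3 without AII + EGF replicate 2 or 3 or control replicate 4. JUND gained a call without AII + EGF replicate 5. DESeq2 lost PPP3CB-AS1 and CPLANE2, and RLE factors EIF3E. With library totals CPLANE2 and TNFAIP3 lost their calls and JUND gained one. The fits with library totals, with TMM factors from the compared libraries only and with AII replicate 6 added back were chosen after seeing the data.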

Other observations

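Clock and polyamine genes were also measured. Of 17 circadian clock genes 5 were called higher and 2 lower under AII + EGF against control (median 0.38). NPAS2, a partner of BMAL1, went from 6.46 to 26.4 CPM, log2 change 2.03 ± 0.12, the repressor CRY1 from 36.4 to 113 CPM, log2 change 1.64 ± 0.09, BHLHE41, another repressor, from 5.36 to 17.7 CPM, log2 change 1.73 ± 0.15, and the nuclear receptor NR1D2 fell from 90.4 to 43 CPM, log2 change −1.07 ± 0.10. Of 9 polyamine genes 3 were called, all higher, with ODC1, the first enzyme of polyamine synthesis, from 188 to 409.9 CPM, log2 change 1.13 ± 0.11, SRM from 123 to 204 CPM, log2 change 0.73 ± 0.15 and SAT1, which acetylates polyamines for export, from 67.3 to 117 CPM, log2 change 0.80 ± 0.10. With all libraries as labelled 1 of the 9 was called. NEFM, a neurofilament gene that HEK293 cells express, had one of the 5 largest gains in CPM, from 3420.2 to 8456 CPM, log2 change 1.31 ± 0.19, with 4546 CPM under EGF and 3090.1 CPM under AII.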
